A study of Homo sapiens with 4 samples.

Results

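The proteins that package newly made transcripts and the core proteins of the spliceosome were followed in ribosome footprints of K562 and HepG2 cells. The members are the protein-coding genes whose symbol starts with HNRNP, SNRP, SF3A, SF3B, U2AF or PRPF. Of the 35316 genes with junction rows, 60 were members, and 54 of these had enough reads to be compared. The groups are K562, erythroleukemia-type cells grown from chronic myeloid leukemia, and HepG2, cells of a human liver cancer that keep hepatocyte traits, with 2 samples of each. Both lines were untreated as far as the labels say, and each group is 1 line. In ribosome profiling, messenger RNA fragments that sit inside ribosomes (footprints) are sequenced, and the values used here count only footprints that span an annotated splice junction, so exons read without a junction are not covered.

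Heterogeneous nuclear ribonucleoproteins (hnRNPs) coat pre-mRNA and influence which exons are kept. The spliceosome that removes introns is built from small nuclear RNAs and their proteins. In it, a ring of Sm proteins surrounds most of these RNAs, SF3A and SF3B hold the U2 particle on the branch site, U2AF reads the end of the intron, and many PRPF proteins belong to or act on the particle of U4, U6 and U5. Splicing factors are known for splicing their own transcripts in alternative ways, often into forms that are destroyed by nonsense-mediated decay (NMD).

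The tables held 7487508 uniquely mapped junction reads in K562 against 9927809 in HepG2, and both samples of a line are pooled in its table. No replicate check exists for any value, no test across samples was possible, and each interval below is an exact 95% interval that covers counting error only. Of 8 erythroid marker genes 7 were past 2-fold higher in K562, and all 8 hepatocyte marker genes were past 2-fold higher in HepG2. Footprint totals do not separate the amount of a messenger RNA from how densely it is translated, and fewer cells with a transcript cannot be told apart from fewer copies per cell.

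Few members differed by more than 2-fold between the lines. Depth-scaled ratios of K562 to HepG2 had a median log2 of 0.35 over the 54 members, against -0.01 over all 10956 genes compared. Of the members 34 were above 0 and 20 below, and of all genes 5447 were above and 5509 below. Intervals lay wholly above a ratio of 1 for 32 members, wholly below it for 15 and across it for 7. Intervals of all genes were not counted this way, so these counts have no background share. The rule for a higher gene was that the whole interval lay past 2-fold. By that rule 7 members were higher in K562, 13.0% of the 54, where 16.8% of all genes were. In HepG2 2 members were higher, 3.70%, where 21.9% of all genes were. The other 45 members passed in neither direction. Member genes took 2.73% of the compared reads in K562 and 1.91% in HepG2. With scaling by total reads the median of the members was 0.77 and that of all genes 0.41. In that setting 17 members were higher in K562, a share above that of all genes, of which 2656 were.

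**Figure D1:**
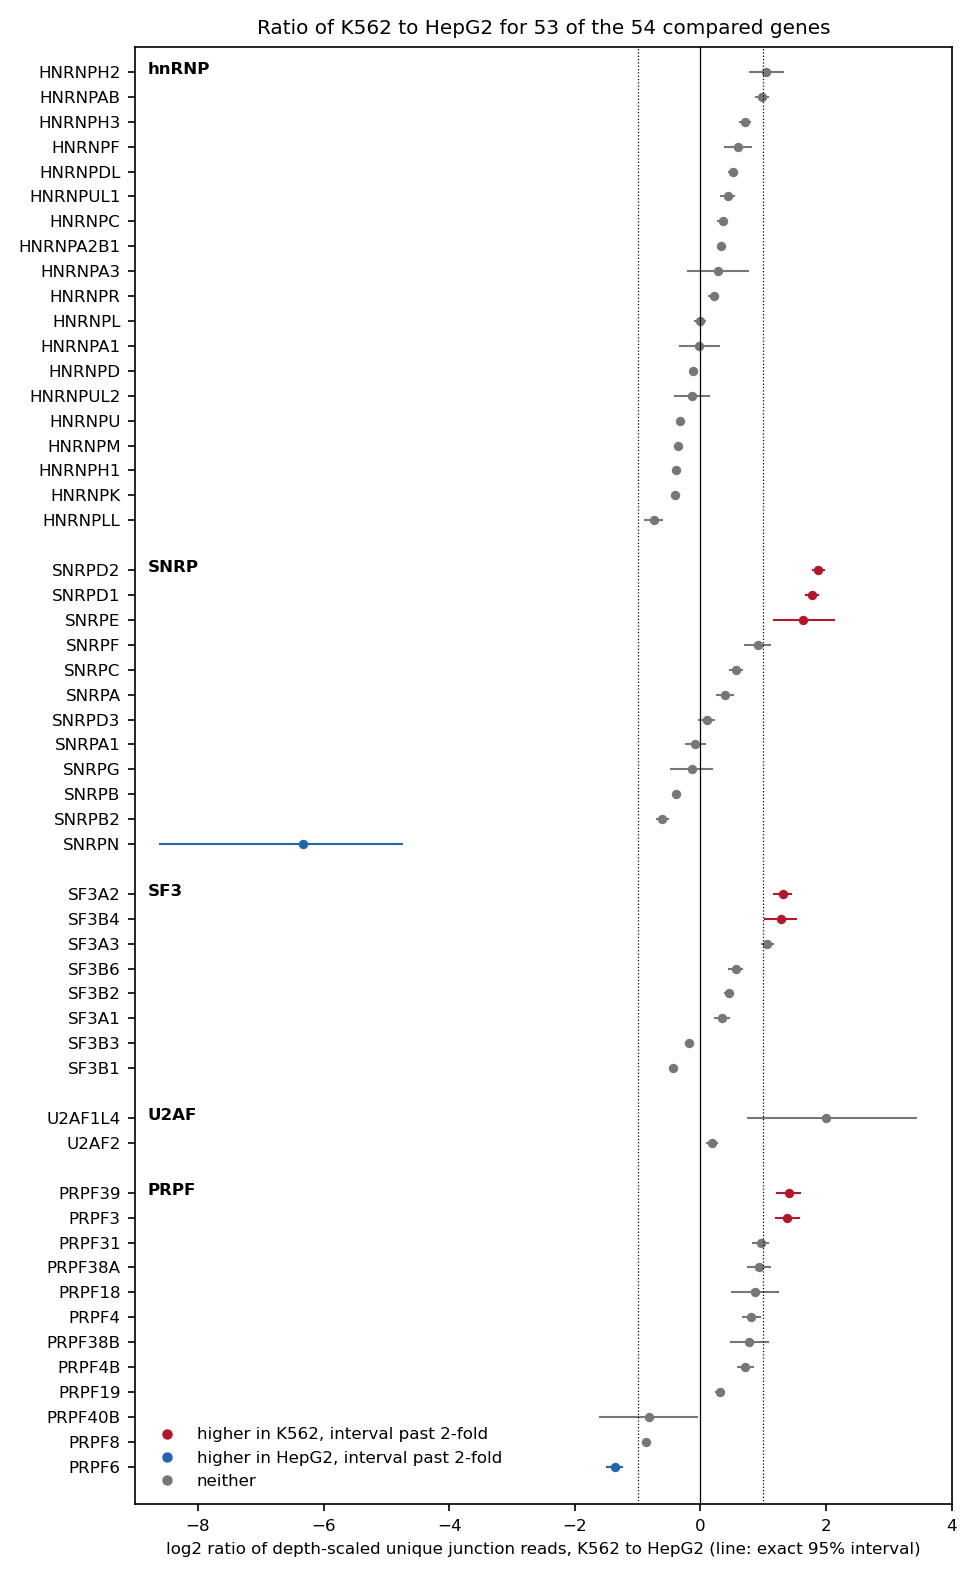
Log2 ratio of depth-scaled unique junction reads, K562 to HepG2, for 53 of the 54 compared genes by family (points) with exact 95% intervals (lines); dotted lines mark 2-fold. No hnRNP gene is coloured, while SNRPD2, SNRPD1, SNRPE, SF3A2, SF3B4, PRPF39 and PRPF3 lie past 2-fold on the K562 side and SNRPN and PRPF6 on the HepG2 side.

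Members differ widely in how heavily they are read. To compare genes with different numbers of junctions, the median of unique reads per coding junction of 1 annotated transcript was taken, per 1000000 reads of effective depth. HNRNPA2B1 led in both lines on this scale, with 476 in K562 and 430 in HepG2. In K562 the next were SNRPD2 with 302, SNRPD1 with 194, HNRNPDL with 123 and HNRNPD with 102. In HepG2 those 4 genes had 82.1, 50.6, 74.2 and 149, and the places after HNRNPA2B1 went to HNRNPD, HNRNPU with 140 and SNRPB with 121. In HepG2 SNRPD2 held the sixth place and SNRPD1 the tenth. With all mapped reads, HNRNPA1, which binds RNA and shuttles between nucleus and cytoplasm, took the second place in both lines with 243 in K562 and 219 in HepG2. Its unique median was 0 in both. The value of SNRPD2 is the midpoint of 2 junctions with 4904 and 124 reads in K562, so its place rests on 1 junction. Places also moved with all mapped reads for other genes: SNRPG took the seventh and HNRNPC the ninth place in K562, against places 45 and 40 with unique reads.

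The Sm proteins held the 3 members with the highest K562 ratios past the rule and the member furthest to the HepG2 side. SNRPD2 (ENSG00000125743, GRCh38 chromosome 19, 45687454 to 45692569, minus strand), a subunit of the Sm ring, had 5056 unique reads in K562 against 1372 in HepG2 (ratio 3.67, 3.45 to 3.90). SNRPD1 (ENSG00000167088, chromosome 18, 21612267 to 21633524), its partner in the ring, had 3909 in K562 and 1141 in HepG2 (ratio 3.41, 3.19 to 3.65). SNRPE (ENSG00000182004, chromosome 1, 203861603 to 203870550), another ring subunit, had 156 in K562 and 50 in HepG2 (ratio 3.11, 2.25 to 4.36).

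These 3 ratios rest on different parts of the genes. In SNRPD2, 95.6% of reads crossed 1 junction, which lies 2 bases into the coding sequence, with 4904 reads in K562 against 1244 in HepG2. The other coding junction of SNRPD2, 152 coding bases in, had 124 in K562 and 118 in HepG2 (ratio 1.05, 0.81 to 1.36). Without the most-read junction of each gene the log2 ratio of SNRPD2 was 0.29 and no longer past the rule. SNRPD1 was higher at each of its 3 main coding junctions, with ratios of 3.83, 3.12 and 3.33 after 14, 91 and 151 coding bases. In SNRPE, 155 of the 156 unique reads in K562 and 49 of the 50 in HepG2 lay at junctions of noncoding transcripts. Its coding junctions hold mostly multi-mapped reads, and with all 2842 mapped reads in K562 against 1383 in HepG2 the log2 ratio was 1.01, short of the rule.

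**Figure D2:**
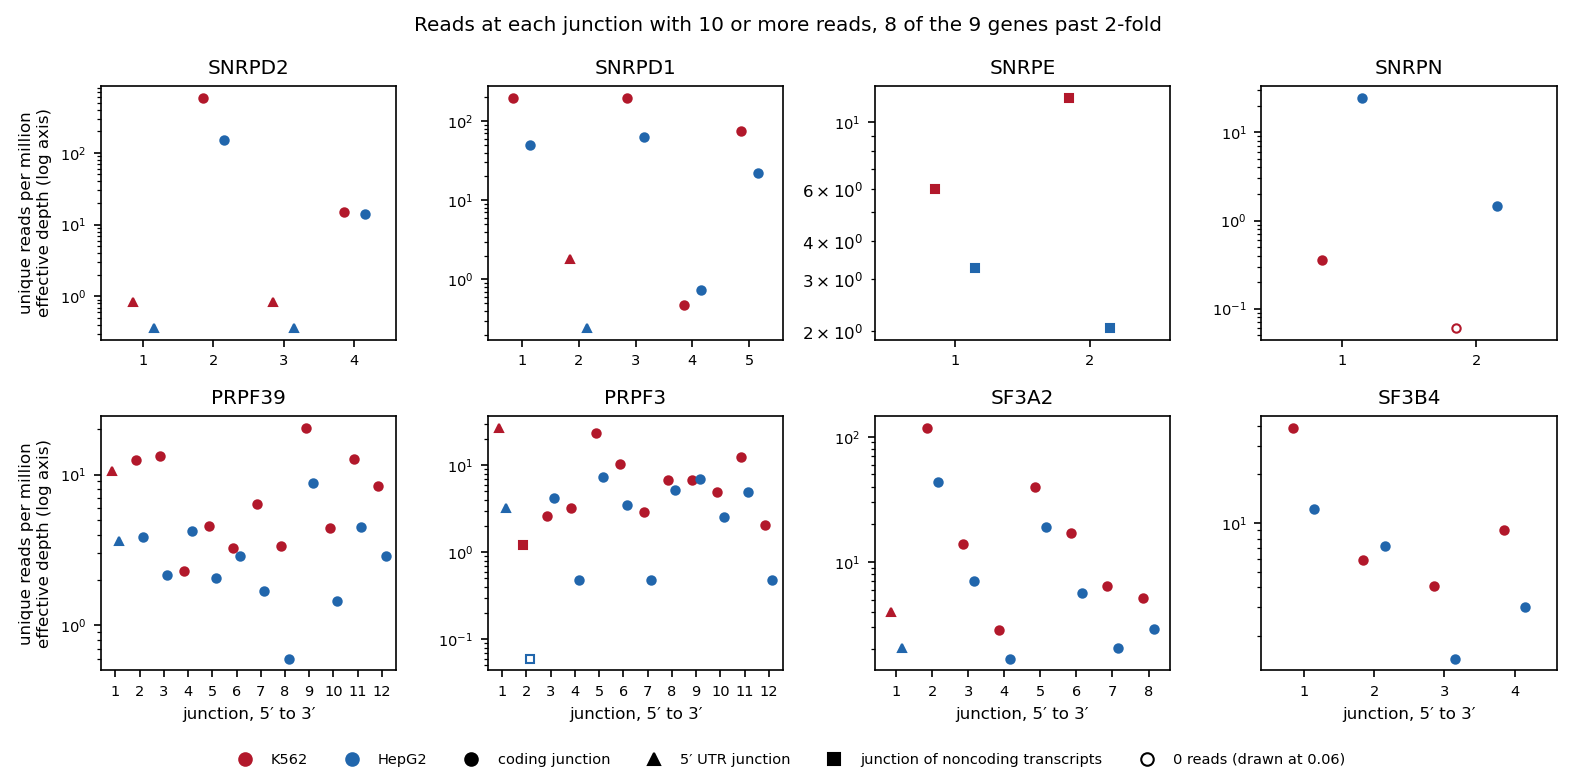
Unique reads per 1000000 of effective depth (log axis) at each junction with 10 or more reads, in transcript order, for 8 of the 9 genes past 2-fold (all but PRPF6); colours mark the line and shapes the kind of junction. In SNRPD2 the lines differ at the first coding junction (4904 and 1244 reads) but not at the second (124 and 118), whereas the points of SF3A2 are higher in K562 at all 8 junctions.

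SNRPN (ENSG00000128739, chromosome 15, 24823637 to 24978723), whose product SmN replaces SmB in the ring and is best known from brain, had 3 unique reads in K562 against 239 in HepG2. After scaling, HepG2 had 80.04 times the reads of K562 (27.1 to 391). Its messenger also carries SNURF, and the junctions assigned to both genes had 6 reads in K562 against 974 in HepG2. SNRPN was thus near 0 in K562 in both sets of junctions. Its 3 K562 reads all lay at its most-read junction. The log2 ratio was -6.32 with all junctions. Without that junction it was -3.42, a value set by a floor of 3 reads in place of no K562 read. The second value therefore does not measure a weaker difference.

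Of the other ring subunits, none passed the rule. SNRPB, which encodes SmB, had 5999 reads in K562 against 7810 in HepG2 (0.765, 0.739 to 0.791). Its junctions were uneven: after 3 coding bases the ratio was 0.937, after 267 it was 0.472, and after 685 it was 0.193. SNRPD3 had 1120 in K562 and 1041 in HepG2, and SNRPF had 621 in K562 and 329 in HepG2, all at 1 junction. With all mapped reads the log2 ratio of SNRPF was -0.20, where unique reads gave 0.91. For SNRPG, 6.90% of mapped reads were unique, and those numbered 153 in K562 and 168 in HepG2. The log2 ratio of SNRPG was -0.14, against 0.24 with all mapped reads and -1.40 with coding junctions only.

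The SNRP genes that encode proteins of single particles were all within 2-fold. SNRPC, the U1 protein that helps to read the start of the intron, had 2071 reads in K562 against 1394 in HepG2 (1.48, 1.38 to 1.58). Of its mapped reads 37.3% were unique, the log2 ratio was 0.82 with all mapped reads, and it was -0.07 with coding junctions 60 or more bases after the start, where few reads lie. SNRPA, which binds a loop of U1 RNA, had 1278 in K562 and 970 in HepG2 (1.31, 1.20 to 1.43). SNRPB2, its counterpart in U2, had 1868 in K562 and 2828 in HepG2 (0.657, 0.620 to 0.697), and SNRPA1, which binds beside it, had 716 in K562 and 753 in HepG2 (0.946, 0.853 to 1.05). For SNRPA1 29.5% of mapped reads were unique, and with all 2845 in K562 and 2140 in HepG2 the log2 ratio was 0.38. For SNRPB2 80.1% of mapped reads were unique in K562 and 63.1% in HepG2. With all mapped reads the log2 ratio of SNRPB2 was -0.98, where unique reads gave -0.60.

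Among the U2 proteins, all 3 SF3A genes had ratios above 1 and the 5 SF3B genes were mixed. SF3A2 (ENSG00000104897, chromosome 19, 2236504 to 2248679) had 1723 reads in K562 against 693 in HepG2 (ratio 2.47, 2.26 to 2.71). It was higher in K562 at all 8 junctions with 10 or more reads. SF3B4 (ENSG00000143368, chromosome 1, 149923317 to 149928344, minus strand), which contacts pre-mRNA near the branch site, had 482 in K562 and 198 in HepG2 (ratio 2.42, 2.05 to 2.87).

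The SF3B4 call did not hold with 99% intervals or without its most-read junction, where its log2 ratio was 0.74. SF3A3 missed the rule narrowly, with 3203 reads in K562 against 1524 in HepG2 (2.09, 1.97 to 2.23), and passed it when coding junctions alone were counted. The 3 most-read genes of the family, all of SF3B, were closer to 1. SF3B1, which grips the branch site and is often mutated in myeloid disease, had 5931 reads in K562 against 7994 in HepG2 (0.738, 0.714 to 0.764). SF3B3 had 6222 in K562 and 7033 in HepG2 (0.881, 0.851 to 0.911), and SF3B2 had 5739 in K562 and 4190 in HepG2 (1.36, 1.31 to 1.42). SF3A1 and SF3B6 had ratios of 1.27 and 1.47.

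U2AF2, the subunit that binds the pyrimidine tract, had 2893 reads in K562 against 2527 in HepG2 (1.14, 1.08 to 1.20). Its partner U2AF1, which recognises the last bases of the intron, had no unique read in either line. All of its reads, 2322 in K562 and 2000 in HepG2, were multi-mapped, and the near-identical U2AF1L5 had 2260 in K562 and 1983 in HepG2, so a read of one may be counted for both. U2AF1L4, a shorter relative, had 28 reads in K562 against 7 in HepG2, a ratio of 3.98 with an interval of 1.70 to 10.8 that reached below 2-fold.

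PRPF genes were the most spread family after SNRP, with 9 of 13 ratios above 1. PRPF39 (ENSG00000185246, chromosome 14, 45084099 to 45116282), a U1-associated factor, had 856 reads in K562 against 322 in HepG2 (ratio 2.65, 2.33 to 3.02), and was higher in K562 at 11 of 12 junctions. PRPF3 (ENSG00000117360, chromosome 1, 150321476 to 150353195), a U4/U6 protein, had 868 in K562 and 331 in HepG2 (ratio 2.61, 2.30 to 2.97). Part of this lay ahead of the start codon: a junction of the 5′ untranslated region (UTR) had 224 reads in K562 against 27 in HepG2, and with coding junctions only the log2 ratio was 1.14 and missed the rule.

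PRPF6 (ENSG00000101161, chromosome 20, 63981135 to 64033100), which bridges the U5 and U4/U6 particles, was the other member higher in HepG2. It had 810 reads in K562 against 2077 in HepG2, which gave HepG2 2.58 times the reads of K562 (2.37 to 2.80), and was higher in HepG2 at 18 of 19 junctions. PRPF8, the scaffold of the catalytic centre and the most-read PRPF gene, had 4206 in K562 and 7615 in HepG2 (0.550, 0.529 to 0.571), higher in HepG2 at 38 of 42 junctions yet within 2-fold. PRPF19, a ubiquitin ligase of the active spliceosome, had 5010 in K562 and 4034 in HepG2 (1.24, 1.19 to 1.29).

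The remaining PRPF genes of the tri-snRNP leaned to K562 short of the rule. PRPF31, PRPF38A, PRPF4 and the kinase PRPF4B had ratios of 1.95, 1.90, 1.75 and 1.64. PRPF18, a factor of the second catalytic step, had 178 reads in K562 against 97 in HepG2, and PRPF38B had 271 in K562 and 157 in HepG2. PRPF40B was hardly read, with 24 in K562 and 42 in HepG2.

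None (0) of the 19 compared hnRNP genes passed the rule, and their log2 ratios ran from -0.75 for HNRNPLL to 1.05 for HNRNPH2. Intervals lay wholly above 1 for 9 of them, wholly below 1 for 6 and across 1 for 4. No share over all genes is at hand for these interval counts. HNRNPA2B1, which binds many introns and sorts microRNAs and messengers, had by far the most reads of any member, 52532 in K562 and 41773 in HepG2 (1.25, 1.24 to 1.27). HNRNPU, a nuclear scaffold protein, had 13895 in K562 and 17246 in HepG2 (0.802, 0.784 to 0.820), and HNRNPM had 8064 in K562 and 10307 in HepG2 (0.779, 0.756 to 0.802).

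Within the A/B class, HNRNPAB was highest, with 2791 reads in K562 against 1403 in HepG2 (1.98, 1.86 to 2.11), and HNRNPDL had 6108 in K562 and 4252 in HepG2 (1.43, 1.38 to 1.49). HNRNPD, also called AUF1 and known for binding AU-rich messengers, had 8703 in K562 and 9365 in HepG2 (0.925, 0.898 to 0.952). HNRNPA1 cannot be read from unique reads, since only 175 of its 29602 mapped reads in K562 and 176 of 18486 in HepG2 were unique. With all mapped reads its log2 ratio was 0.65, and the same setting gave -0.50 for HNRNPA3, of whose mapped reads 1.13% were unique.

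HNRNPH1 and its relatives bind runs of G and had ratios on both sides of 1. HNRNPH1 had 7443 reads in K562 against 9662 in HepG2 (0.767, 0.744 to 0.790). HNRNPH3 had 3447 in K562 and 2100 in HepG2 (1.63, 1.55 to 1.73). HNRNPF and HNRNPH2 code for their protein in 1 exon, so their 476 and 376 reads in K562, against 313 and 181 in HepG2, all lay at junctions of the 5′ UTR.

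The poly(C)-binding HNRNPK had 5476 reads in K562 against 7180 in HepG2 (0.759, 0.733 to 0.786), and HNRNPL, which binds CA repeats, had 2396 in K562 and 2397 in HepG2. HNRNPL had a log2 ratio of 0.37 once its most-read junction was left out. HNRNPC, which binds runs of U, had 3668 in K562 and 2850 in HepG2 (1.28, 1.22 to 1.35), and HNRNPR had 3614 in K562 and 3109 in HepG2 (1.16, 1.10 to 1.21). HNRNPLL, a factor of lymphocyte splicing, had 735 in K562 and 1227 in HepG2 (0.596, 0.543 to 0.654). HNRNPUL1 and HNRNPUL2 had ratios of 1.35 and 0.912. The 6 members not compared were U2AF1, U2AF1L5, HNRNPUL2-BSCL2 and the HNRNPC-like genes HNRNPCL1, HNRNPCL2 and HNRNPCL3, which had no unique read of their own.

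Both lines carry abnormal chromosome numbers, and the median ratio of all compared genes differed between chromosomes. On chromosome 20 the median log2 ratio was -1.31 over 301 genes, and on chromosome 14 it was -0.77 over 367. PRPF6 on chromosome 20 had a log2 ratio of -1.37, which is -0.05 relative to that median. SNRPB and SNRPB2, on the same chromosome, had -0.39 and -0.60, which are 0.92 and 0.71 relative to it. PRPF39 and HNRNPC on chromosome 14 had 1.40 and 0.36, which become 2.17 and 1.13.

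Chromosomes 1 and 19 had medians of 0.45 and 0.39 over 1126 and 747 genes, and they held 5 of the 7 members higher in K562. Members that did not pass the rule also lie there, HNRNPU, SF3A3, HNRNPM and U2AF2 among them. The share of all genes higher in K562 that lies on these chromosomes was not counted, so the 5 of 7 has no background share. Relative to the chromosome median, 4 members were higher in K562 and 1 in HepG2. Calls no longer past the rule in that setting were those of SF3A2, SF3B4, PRPF3, SNRPE and PRPF6, and HNRNPC entered. The part that gene dosage has in any member's ratio was not tested.

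**Figure D3:**
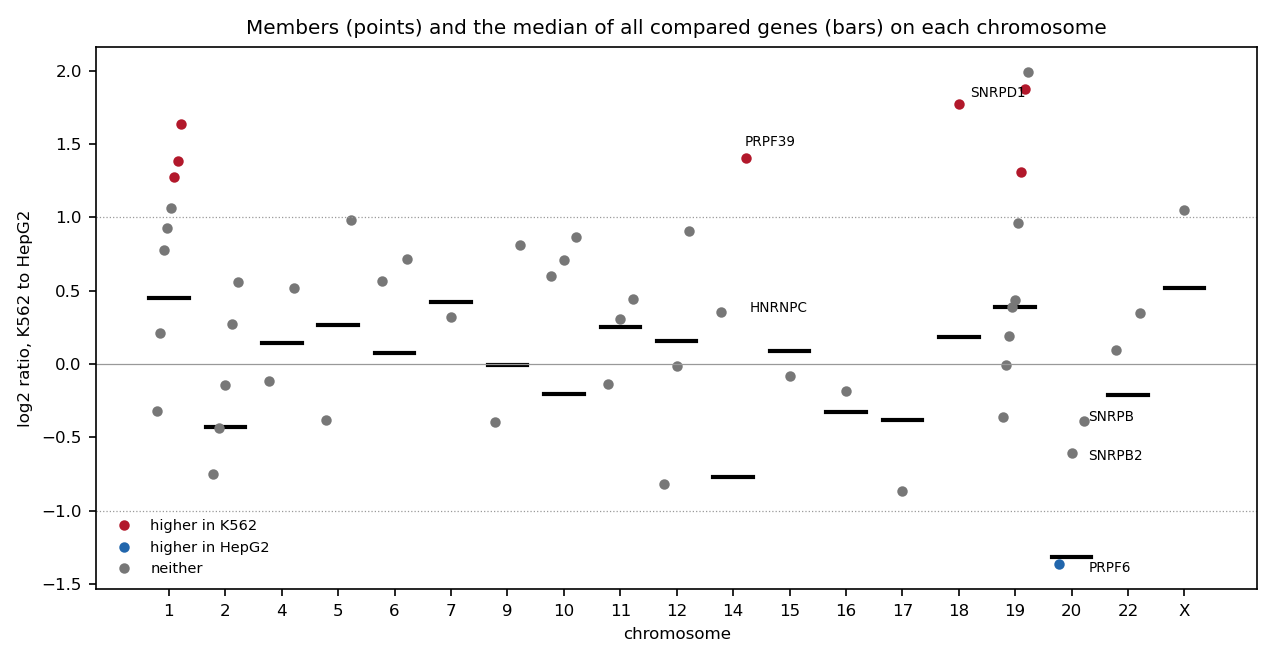
Log2 ratio of K562 to HepG2 for 52 of the 54 compared members (points) beside the median of all compared genes on its chromosome (black bars); SNRPN on chromosome 15, at -6.32, is off the scale and not among them. PRPF6 sits on the bar of chromosome 20, while SNRPB and SNRPB2 lie above it and PRPF39 lies 2.17 above the bar of chromosome 14.

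Other spliceosomal genes, in 5 lists chosen from their known roles, gave counts near those of the members: 13 of 108 compared genes were higher in K562 (12.0%), 5 were higher in HepG2 (4.63%), and the median log2 ratio was 0.41. The U1, U2, U5 and minor-spliceosome proteins had 2 of 26 higher in K562 and 0 in HepG2. PPIH, a cyclophilin of the tri-snRNP, had 3178 reads in K562 against 965 in HepG2 (3.28, 3.05 to 3.53), and SNRNP35, a protein of the minor U11 particle, had 544 in K562 and 157 in HepG2 (3.45, 2.88 to 4.15).

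Proteins that join during activation and the exon junction complex had 6 of 33 higher in K562 (18.2%) and 1 in HepG2 (3.03%). The K562 share is near the 16.8% of all genes. PPIL2 had 5652 reads in K562 against 961 in HepG2 (5.85, 5.47 to 6.27), and PPIE, also a cyclophilin of the activated spliceosome, had 1832 in K562 and 362 in HepG2 (5.04, 4.50 to 5.65). BUD31 and SRRM1 had ratios of 4.29 (4.02 to 4.57) and 2.58 (2.42 to 2.75).

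LSm proteins, some of which form the ring on U6, had 3 of 12 higher in K562. These were LSM4 with a ratio of 3.65, LSM8 with 3.06 and LSM2 with 2.66. LSM14B, a cytoplasmic relative, was higher in HepG2. In the list of snRNP assembly 2 of 18 genes passed in each direction. GEMIN4 and GEMIN7 had ratios of 3.55 and 2.99, whereas GEMIN2 had 476 reads in K562 against 1104 in HepG2, and SMN2 had 26 in K562 and 85 in HepG2. SMN2 is uncertain, since its near-identical copy SMN1 had 182 in K562 and 117 in HepG2 and so lay on the other side of 1, at 1.55. Of 19 other hnRNP-class genes only RALY passed (5.26%), higher in HepG2 with 2401 reads in K562 against 5975 in HepG2. CRNKL1, of the activation list, had 431 in K562 and 1409 in HepG2. RALY, LSM14B and CRNKL1 lie on chromosome 20 and GEMIN2 on chromosome 14. Of the named list genes higher in K562, PPIH, PPIE and SRRM1 lie on chromosome 1, and LSM4 and GEMIN7 on chromosome 19. BUD31 and LSM8 lie on chromosome 7, PPIL2 on 22, SNRNP35 on 12, LSM2 on 6 and GEMIN4 on 17. The part of gene dosage in these ratios was not tested.

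Shares of junctions within a gene give a second reading of the members, on alternative splicing. A junction was counted when its share of the unique reads at a splice site differed by 20 percentage points or more and the intervals were apart. This held for 19 of 338 member junctions (5.62%) and for 2.59% of junctions of all genes. With all mapped reads the shares were 4.30% of member junctions and 2.66% of junctions of all genes. The 19 lay in 9 of 47 genes (19.1%), where 8.31% of 5593 genes had such a junction: HNRNPAB, HNRNPC, HNRNPH1, HNRNPK, HNRNPM, HNRNPR, HNRNPUL1, PRPF3 and SNRPG. Junctions at 1 exon depend on each other, and intervals are narrower where reads are many. Neither difference from all genes was tested or matched for depth.

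Several hnRNP genes make well-known protein isoforms by including a short exon or exon end, and 4 of these are shown here. In the lines below, from GENCODE release 29 on GRCh38 in the direction of the transcript, capitals mark the variable exon or exon end and lower case the coding bases beside it. All 4 keep the reading frame, with 12, 13, 18 and 19 codons in the order of the lines.
HNRNPA2B1 36-base exon, chr7:26197831-26197866, minus strand: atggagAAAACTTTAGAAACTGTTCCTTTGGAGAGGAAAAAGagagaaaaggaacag
HNRNPC 39-base exon end, chr14:21230958-21230996, minus strand: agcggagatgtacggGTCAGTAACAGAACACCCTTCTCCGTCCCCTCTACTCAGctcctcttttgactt
HNRNPM 54-base exon, chr19:8483158-8483211, plus strand: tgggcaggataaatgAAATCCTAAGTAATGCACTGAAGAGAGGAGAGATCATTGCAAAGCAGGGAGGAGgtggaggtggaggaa
HNRNPD 57-base exon, chr4:82371528-82371584, minus strand: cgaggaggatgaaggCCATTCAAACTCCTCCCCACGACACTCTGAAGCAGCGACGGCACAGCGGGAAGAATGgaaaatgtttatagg

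The 36-base exon of HNRNPA2B1, which turns A2 into the longer B1 protein, was in the minority in both lines. At its upstream side it took 17.4% of reads (16.7% to 18.0%) in K562 and 23.7% (22.9% to 24.5%) in HepG2. At its downstream side the shares were 17.0% (16.3% to 17.6%) in K562 and 17.5% (16.7% to 18.2%) in HepG2. The lines were thus apart on 1 side of the exon only.

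For the 57-base exon of HNRNPD both sides went the same way. The upstream share was 77.4% (74.8% to 79.9%) in K562 and 64.5% (61.6% to 67.4%) in HepG2, and the downstream share was 86.3% (84.6% to 87.8%) in K562 and 76.9% (74.8% to 78.9%) in HepG2. The exon was included more often in K562, by less than 20 points.

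In HNRNPM the 54-base exon was skipped less often in K562. The skipping junction had 20 reads in K562 against 55 in HepG2, and inclusion at the downstream side was 70.6% (58.3% to 81.0%) in K562 and 34.5% (24.5% to 45.7%) in HepG2. At the upstream side, where the including junction is read far more heavily, inclusion was 97.7% in K562 and 91.9% in HepG2, with intervals apart in the same direction.

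The 39 bases of HNRNPC distinguish the longer C2 protein from C1. Among unique reads the longer form had 28 of 97 in K562 (28.9%, 20.1% to 39.0%), against 13 of 195 in HepG2 (6.67%, 3.60% to 11.1%). Most reads here are multi-mapped. With all mapped reads the shares were 11.7% (10.03% to 13.4%) in K562 and 10.08% (8.51% to 11.8%) in HepG2, so the difference was not seen in that column.

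HNRNPD, HNRNPAB and HNRNPDL, which are paralogs, each hold a long exon near the end of the coding sequence that can be skipped. The exons are shown side by side because they resemble each other: 14 of 48 whole codons in HNRNPD, 14 of 46 in HNRNPAB and 15 of 56 in HNRNPDL are TAT or TAC, the codons of tyrosine, and 12, 13 and 14 are codons of glycine.
HNRNPD 147-base exon, chr4:82356537-82356683, minus strand: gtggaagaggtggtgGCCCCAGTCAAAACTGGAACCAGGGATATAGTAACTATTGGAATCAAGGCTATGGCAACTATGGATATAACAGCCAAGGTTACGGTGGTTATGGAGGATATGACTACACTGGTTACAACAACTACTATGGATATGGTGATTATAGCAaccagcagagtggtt
HNRNPAB 141-base exon, chr5:178210132-178210272, plus strand: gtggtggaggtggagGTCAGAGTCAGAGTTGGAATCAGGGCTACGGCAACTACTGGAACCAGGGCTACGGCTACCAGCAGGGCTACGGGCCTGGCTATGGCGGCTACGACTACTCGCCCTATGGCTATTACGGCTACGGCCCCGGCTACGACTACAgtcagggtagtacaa
HNRNPDL 171-base exon, chr4:82426463-82426633, minus strand: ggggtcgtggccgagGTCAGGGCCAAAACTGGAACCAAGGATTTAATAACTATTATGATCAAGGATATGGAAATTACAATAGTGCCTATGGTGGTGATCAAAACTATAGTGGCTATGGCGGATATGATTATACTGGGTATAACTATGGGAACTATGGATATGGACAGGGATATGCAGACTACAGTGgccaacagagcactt

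The 3 tyrosine-rich exons did not move together. In HNRNPAB inclusion at the upstream side was 142 of 173 reads in K562 (82.1%, 75.5% to 87.5%), against 45 of 74 in HepG2 (60.8%, 48.8% to 72.0%). At its downstream side it was 85.2% in K562 and 72.6% in HepG2, with overlapping intervals. With all mapped reads the upstream shares were 66.5% in K562 and 44.6% in HepG2, since the skipping junction gains reads.

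In HNRNPD the exon went the other way at its downstream side, 67.6% (64.1% to 70.9%) in K562 and 76.7% (74.5% to 78.7%) in HepG2. Its upstream junction was thinly read, with 39 reads in K562 against 76 in HepG2, and inclusion there was 13.6% (9.88% to 18.2%) in K562 and 16.8% (13.5% to 20.5%) in HepG2, with overlapping intervals. Whether the HNRNPD exon is mostly in or mostly out therefore depends on the side that is read. HNRNPDL included its exon in 97.3% of reads in K562 and 99.5% in HepG2, with 8 skipping reads in K562 against 1 in HepG2 and overlapping intervals.

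**Figure D4:**
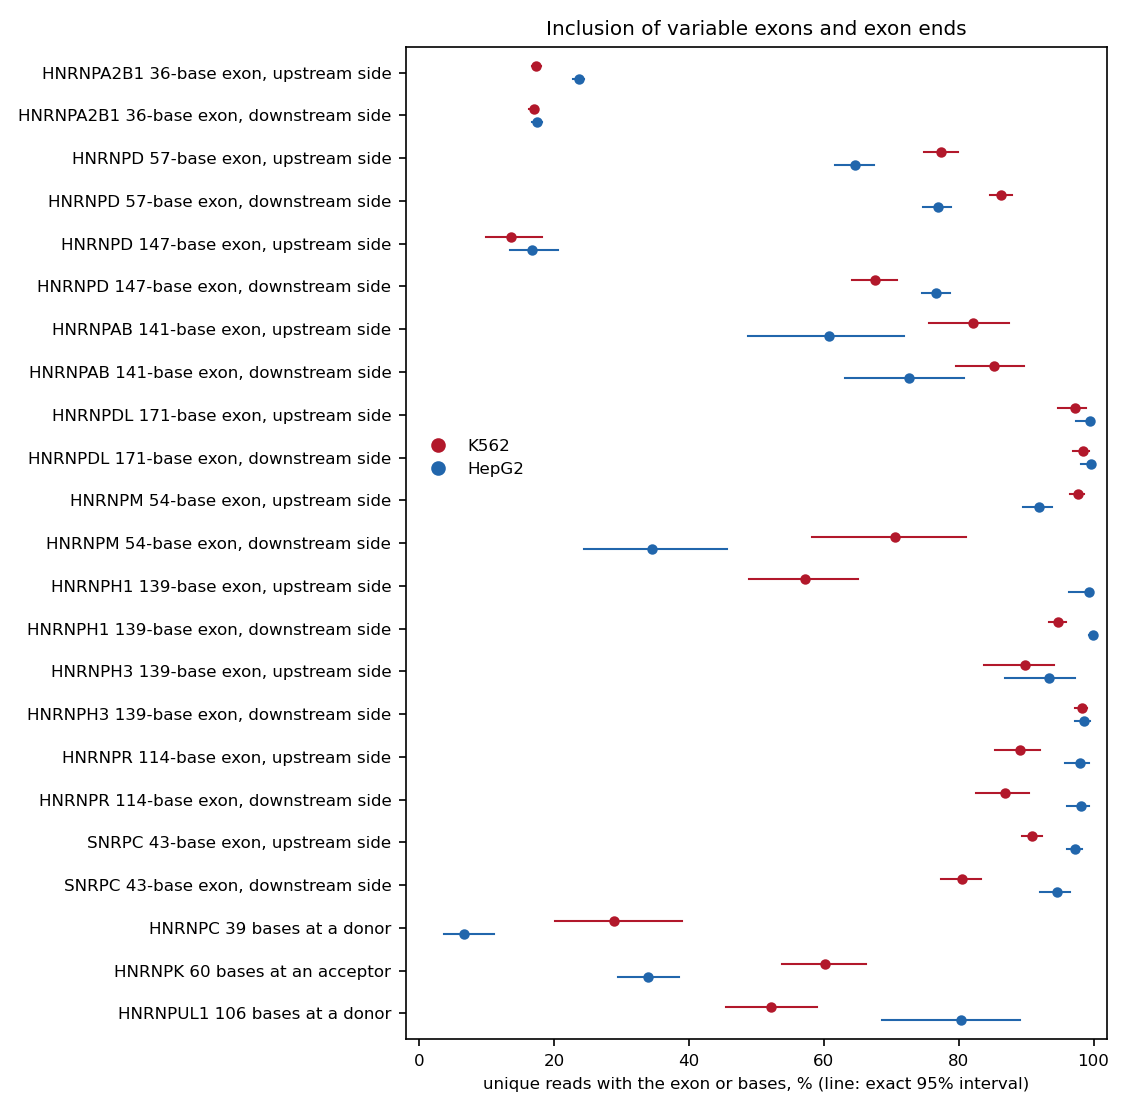
Share of unique reads that include a variable exon, counted at its upstream and its downstream side, or that include the bases of an alternative donor or acceptor, for K562 and HepG2 (points) with exact 95% intervals (lines). The widest gap is the upstream side of the 139-base exon of HNRNPH1, 57.1% in K562 and 99.3% in HepG2.

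HNRNPH1 skipped a 139-base coding exon in K562, with 66 reads in K562 against 1 in HepG2 at the skipping junction. At the upstream site that junction took 41.0% of reads (33.3% to 49.0%) in K562 and 0.654% (0.0165% to 3.59%) in HepG2, and at the downstream site 5.26% in K562 and 0.111% in HepG2. The length is no multiple of 3, so a transcript that lacks the exon changes frame unless another exon differs too. HNRNPH3 holds an exon of the same length, identical at 126 of 139 positions, and the pair is shown because the intervals of the lines were apart for HNRNPH1 and overlapped for HNRNPH3; the difference between the genes was not tested.
HNRNPH1 139-base exon, chr5:179619269-179619407, minus strand: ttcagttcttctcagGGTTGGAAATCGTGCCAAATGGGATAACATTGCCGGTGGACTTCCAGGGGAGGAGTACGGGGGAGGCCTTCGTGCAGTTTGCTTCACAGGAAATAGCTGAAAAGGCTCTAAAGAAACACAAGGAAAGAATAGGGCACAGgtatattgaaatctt
HNRNPH3 139-base exon, chr10:68337858-68337996, plus strand: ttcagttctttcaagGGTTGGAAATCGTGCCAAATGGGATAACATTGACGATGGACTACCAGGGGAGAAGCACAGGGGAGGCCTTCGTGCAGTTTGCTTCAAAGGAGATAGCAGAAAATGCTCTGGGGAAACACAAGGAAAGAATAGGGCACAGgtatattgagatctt

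In HNRNPH3 the skipping junction, annotated in noncoding transcripts, had 15 reads in K562 against 7 in HepG2. Inclusion at the upstream side was 89.8% (83.7% to 94.2%) in K562 and 93.4% (86.9% to 97.3%) in HepG2. Some reads of the including junctions map to more than 1 place, and with all mapped reads inclusion in HNRNPH1 was 75.2% in K562 and 99.6% in HepG2.

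HNRNPK used 2 acceptors 60 bases apart near the end of its coding sequence. The bases between them were included in 151 of 251 unique reads in K562 (60.2%, 53.8% to 66.3%), against 145 of 428 in HepG2 (33.9%, 29.4% to 38.6%). With all mapped reads the shares came closer, 51.6% in K562 and 42.9% in HepG2.

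Several differences lay at the 5′ ends of genes. In HNRNPR a 5′ UTR junction that bypasses a 166-base exon took 80.9% of reads at its acceptor (77.3% to 84.3%) in K562 and 59.6% (53.8% to 65.2%) in HepG2. Further into the gene, a 114-base coding exon was skipped in 40 reads in K562 against 6 in HepG2, 11.0% and 1.95% of reads at the donor. HNRNPUL1 joined several donors to an acceptor whose intron ends at 41268222. The intron that starts at 41265122 took 40.9% of reads there in K562 and 63.2% in HepG2. A donor that the annotation holds only in NMD transcripts had 107 reads in K562 against 13 in HepG2, 25.6% (21.5% to 30.1%) and 5.63% (3.03% to 9.43%), just under the limit of 20 points.

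In PRPF3 a junction of noncoding transcripts had 10 of 32 reads at a donor in K562 (31.2%, 16.1% to 50.01%), against 0 of 35 in HepG2, with an exact upper bound of 10.003%. SNRPG differed at 4 junctions. One of noncoding transcripts had 65 of 86 reads at an acceptor in K562 and 32 of 91 in HepG2, and one of the 5′ UTR had 26 of 59 in K562 and 1 of 60 in HepG2. The unique reads of SNRPG are a small part of its reads, and with all mapped reads inclusion of its 23-base exon at the downstream side was 79.7% in K562 and 86.1% in HepG2, where unique reads gave 24.4% in K562 and 64.8% in HepG2. SNRPC bypassed a 43-base exon that holds early coding sequence in 135 reads in K562 against 25 in HepG2, and its inclusion at the downstream side was 80.5% (77.3% to 83.4%) in K562 and 94.6% (92.1% to 96.5%) in HepG2.

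Footprints at junctions of the 5′ UTR can come from ribosomes ahead of the main start codon or at it, or from transcripts that start elsewhere. These were not told apart, since the distance of a junction from the start codon was not considered. Members had 3.49% of their unique reads there in K562 and 2.55% in HepG2, and other protein-coding genes had 6.61% in K562 and 3.32% in HepG2. Coding junctions held 96.0% of the members' reads in K562 and 96.9% in HepG2, and with the other order of annotation 27.9% in K562 and 26.6% in HepG2. The higher 5′ UTR share in K562 was therefore also present in other genes, and the members' difference, 0.94 points, was smaller than that of the other genes.

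Gene by gene, 23 of 52 members had a higher 5′ UTR share in K562 and 3 in HepG2, where among 7932 protein-coding genes 33.0% had the higher share in K562 and 13.4% in HepG2. Intervals were apart for 14 members (26.9%), all higher in K562, where 10.1% of those genes were, and for 0 in HepG2, where 1.06% were. The difference of the members from other genes was not tested or matched for depth, and intervals are narrower where reads are many. HNRNPC had 32.9% of its unique reads there in K562 and 19.1% in HepG2, HNRNPH1 had 10.2% in K562 and 4.22% in HepG2, and HNRNPR had 13.7% in K562 and 8.36% in HepG2. Among the snRNP genes, PRPF3 had 25.8% in K562 and 8.16% in HepG2, SNRPD3 had 17.3% in K562 and 9.32% in HepG2, and SNRPB2 had 43.3% in K562 and 37.0% in HepG2. Where coding junctions are multi-mapped, as in HNRNPC, HNRNPK and SNRPG, most coding reads are missing from the unique column, and the share printed here is of the unique reads alone.

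**Figure D5:**
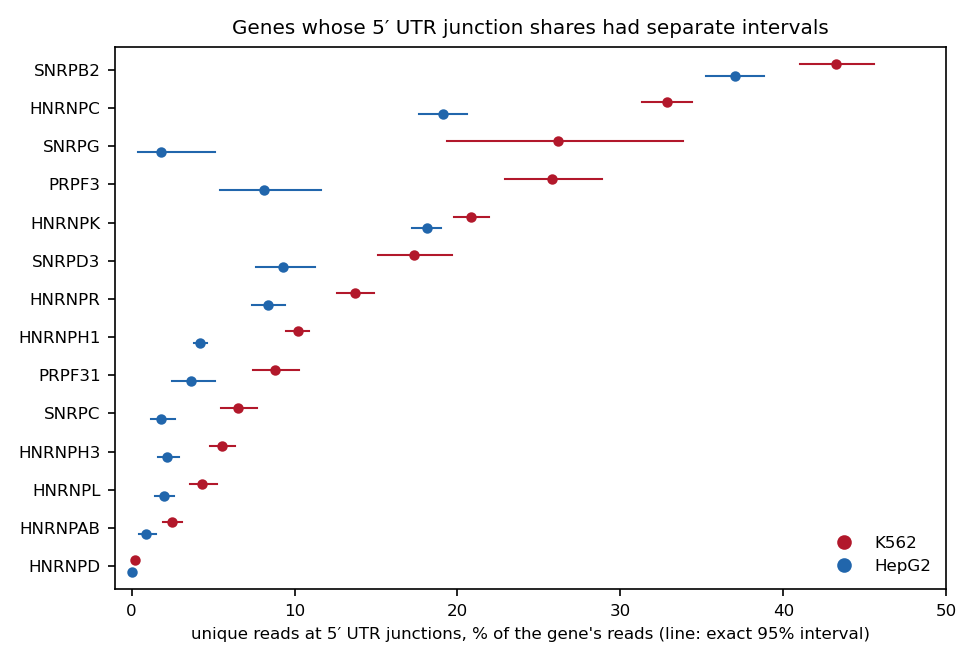
Share of a gene's unique reads that lie at junctions of the 5′ UTR, in K562 and HepG2 (points) with exact 95% intervals (lines), for the 14 members whose intervals were apart. Every one of the 14 was higher in K562, from HNRNPD with 0.23% in K562 and 0.05% in HepG2 to SNRPB2 with 43.3% in K562 and 37.0% in HepG2.

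Junctions of the 3′ UTR, which mark transcripts with an intron after the stop codon, were rare, with 0.132% of member reads in K562 and 0.347% in HepG2. This direction depends on the order in which annotated classes are assigned: with untranslated and noncoding annotation placed first the shares were 0.328% in K562 and 0.114% in HepG2. Most came from HNRNPH1, where 1 such junction had 166 reads in K562 against 595 in HepG2, 2.23% and 6.16% of the gene's reads. HNRNPA2B1 went the other way, with 66 reads in K562 against 17 in HepG2. Intervals were apart for 1 of 52 members in each direction, against 0.177% of the protein-coding genes with the higher share in K562 and 0.454% with it in HepG2. These counts were not matched for depth. Junctions annotated only in NMD transcripts had 0.111% of member reads in K562 and 0.0469% in HepG2, and other protein-coding genes had 0.246% in K562 and 0.109% in HepG2. With the other order, in which a junction shared with an NMD transcript counts as NMD, the direction turned, with 52.9% of member reads in K562 and 56.2% in HepG2. Of 52 members, 1 had intervals apart in this class, against 1.3% of the protein-coding genes with the higher share in K562 and 0.24% with it in HepG2. That member was HNRNPUL1, with 6.16% of its reads in K562 and 1.02% in HepG2.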

How the data were processed

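Ribosome-protected fragments of 4 untreated samples, 2 of each line, were sequenced after lysis with cycloheximide and digestion with RNase I, per the labels' protocols. The deposited values are raw counts of reads per annotated splice junction, all mapped and uniquely mapped, with 1 table per line and both samples of the line pooled in it, per the file headers and the labels. The submitters' processing notes name cutadapt, Bowtie2, STAR 2.6.0 and GRCh38 without their roles; the counting program is not given in the sources used here. Depth was 7487508 unique of 10118105 mapped reads in K562 and 9927809 of 12001095 in HepG2.

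Unique reads at junctions of 1 gene were summed per gene, and a gene was compared where both tables together held at least 20 reads. Ratios were scaled by TMM factors (edgeR 4.0.16 in R 4.3.3) and have exact conditional binomial 95% intervals. With 1 table per line no p-value was computed. Junction shares used sites with 20 or more reads in each table. GENCODE release 29 gave names, biotypes and junction classes (coding, 5′ UTR, 3′ UTR, NMD and noncoding, a coding match first) and matched 350016 of 350863 junctions. Alternatives were scaling by totals or DESeq2 1.42.0 size factors, all mapped reads, other read minimums, 99% intervals, junctions of several genes counted in each of them, the most-read junction left out, coding junctions only and chromosome medians. A further one, coding junctions 60 or more bases after the start, was chosen after seeing the data.

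Members and gene lists were chosen with earlier results of these data known. Values are given for members past 2-fold, the 3 most-read members of each family, U2AF1 and HNRNPA1. In each other list they are given for up to 4 genes past 2-fold with the most reads. Of the counted junctions, at least 1 is given for each gene with such a junction. Other members are given in brief. The values of 1 compared member are not reported here, though it stays in the counts and medians. HNRNPA0, HNRNPA1L2, HNRNPA1P48, HNRNPCL4 and SF3B5 had no junction rows and so could not be analysed. The steps were tested on simulated data.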

Additional observations from a re-analysis of the deposited data

Results flagged for a closer look

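Several members have signal in reads that the comparisons did not use, above the level a count of 0 allows. Multi-mapped junction reads, which the unique column leaves out, numbered 29427 in K562 and 18310 in HepG2 for HNRNPA1, 5653 in K562 and 7881 in HepG2 for HNRNPA3, 2686 in K562 and 1333 in HepG2 for SNRPE, and 2394 in K562 and 1934 in HepG2 for SNRPG. For U2AF1 they numbered 2322 in K562 and 2000 in HepG2, for U2AF1L5 2260 in K562 and 1983 in HepG2, and HNRNPCL2 had 4 in HepG2. The pseudogenes HNRNPA1P1 and HNRNPA1P52 had 2034 and 11 mapped junction reads in K562 and 1792 and 19 in HepG2.

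Unique reads at junctions annotated in more than 1 gene were also left out of the ratios. SNRPN had 6 of these in K562 and 974 in HepG2, HNRNPL had 2492 in K562 and 2067 in HepG2, HNRNPUL2 had 1439 in K562 and 1672 in HepG2, and HNRNPUL2-BSCL2 had 120 in K562 and 51 in HepG2. PRPF18 had 193 in K562 and 106 in HepG2, U2AF1L4 had 43 in K562 and 6 in HepG2, and SNRPB had 16 in K562 and 8 in HepG2.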

How the results depend on the processing

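No ratio of a member past 2-fold reversed its direction under any alternative that was run. With DESeq2 size factors no member changed its call, and with 99% intervals 1 did. Scaling by total reads gave 17 members higher in K562 and 1 in HepG2, 31 and 2 genes of the other lists, and medians of 0.77 for the members and 0.82 for the lists. Relative to the chromosome median, 4 members were higher in K562 and 1 in HepG2, where 1731 and 2260 of all 10956 genes were. Of the lists 1 gene was higher in HepG2, and their median was 0.22. With coding junctions 60 or more bases after the start, an alternative chosen after seeing the data, 1 member and 3 genes of the lists were higher in HepG2. The lists also had 3 genes higher in HepG2 without the most-read junction of each gene and with coding junctions only. With 50 or more reads at a site 17 of 296 member junctions were counted (5.74%), and 511 of 20638 of all genes (2.48%). With a difference of 10 points 32 of 338 member junctions were counted (9.47%), and 1432 of 37042 of all genes (3.87%). The difference in the 5′ UTR share, K562 minus HepG2, was 0.49 points with untranslated and noncoding annotation placed first and 0.22 as the median of the members' own shares. Under the first of these 3 other shares reversed: the NMD difference was -3.27 points, the 3′ UTR difference 0.21 (-0.22 with coding annotation first) and the coding difference 1.24 (-0.91). The NMD difference was 0 as the median. Apart from the orders of annotation and the numbers of junctions kept, the causes were not tested.

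No paired analysis was possible because both samples of a line are pooled in 1 table. Leaving out a replicate was not run for the same reason. Depth limits the thin sites, such as SNRPG, PRPF3 and U2AF1L4, where intervals are wide.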
